A study of Mus musculus with 36 samples.

Results

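Phase II conjugation enzymes attach a glucuronic acid, a sulfate group or glutathione to drugs, steroids, bilirubin and reactive by-products of metabolism. The genes described here were chosen by symbol. They include the Ugt1a, Ugt2a, Ugt2b and Ugt3a families of UDP-glucuronosyltransferases (UGT) and the numbered Sult genes for cytosolic sulfotransferases (SULT). The others are the glutathione S-transferases of the alpha, kappa, mu, omega, pi, theta and zeta classes (GST) and the microsomal enzymes named Mgst (MGST). The rule found 63 genes, each on 1 row of the deposited tables. Of these, 47 had an average of 0.1 FPKM or more across 36 libraries and were tested among 13215 genes: 18 UGT, 8 SULT, 19 GST and 2 MGST genes. The other 16 were Ugt2a1, Ugt2a2, Sult1c1, Sult2a1 to Sult2a6, Sult2b1, Sult3a1, Sult4a1, Sult6b1, Gsto2, Gstt4 and Mgst2, whose values were at most 0.216 FPKM in any library.

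Livers came from male wild-type C57BL/6JRj mice of 16 weeks of age, housed with lights on at ZT0 and free access to chow. In the intermittent hypoxia (IH) groups, inspired oxygen fell to 5% and returned to 21% in 60 cycles per hour between ZT0 and ZT8 of each day, over 4 weeks. The control groups received air-air cycles instead. Each condition was sampled at ZT0, ZT4, ZT8, ZT12, ZT16 and ZT20 with 3 mice per time point, 18 libraries per condition, and strand-specific libraries were made from polyadenylated RNA of whole liver. Mice shared cages, and the cage of each mouse is not given in the labels.

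In the liver these enzymes make fat-soluble compounds soluble enough to leave through bile or urine. UGT enzymes sit in the endoplasmic reticulum and use UDP-glucuronic acid, SULT enzymes use the sulfate donor PAPS in the cytosol, and GST enzymes use glutathione. Many of their genes are induced by the xenobiotic sensors CAR, PXR and AHR and by NRF2, and their levels in mouse liver are known to vary through the day. In bulk liver RNA, fewer cells of a type and less RNA per cell cannot be told apart.

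The values are FPKM, that is, fragments counted relative to transcript length and to all mapped fragments, so they can be compared between genes, but the number of reads behind each is unknown. The summed FPKM ranged from 561964 to 626371 per library, apart from control ZT12 replicate 2 with 808274. Acute-phase genes varied between mice within groups. Saa1, a serum amyloid gene of the acute-phase response, was above 10000 FPKM in 3 libraries (22865 in IH ZT0 replicate 2, 20546 in control ZT12 replicate 2 and 12912 in control ZT16 replicate 3) and above 500 FPKM in 6 others, among them control ZT4 replicates 1 and 3 and control ZT8 replicate 1. No IH library at ZT4 or ZT8 was above 500 FPKM. The summed level of 8 hepatocyte markers lay between 40557 and 67065 FPKM in every library. Summed neutrophil markers were between 0.496 and 14.3 FPKM in the IH libraries and reached 211 in control ZT12 replicate 2, where summed Kupffer cell markers were also highest (289 FPKM). Results are given below with and without the libraries of high Saa1.

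The families lie in clusters of similar genes, which bears on how well their levels can be separated. The 8 Ugt1a members share chr1:88055388-88220002 (mm10), where each has a first exon of its own that is joined to the same second exon at chr1:88215044-88215175. The sequences below show this junction in GENCODE M21 transcripts, the last 30 bases of the own exon in lower case and the first 30 of the shared exon in capitals. They are shown because reads from the capital part fit all members.
Ugt1a1: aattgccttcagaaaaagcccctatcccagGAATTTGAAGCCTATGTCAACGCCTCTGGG
Ugt1a6a: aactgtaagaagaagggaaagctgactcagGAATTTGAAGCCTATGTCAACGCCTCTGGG
Ugt1a6b: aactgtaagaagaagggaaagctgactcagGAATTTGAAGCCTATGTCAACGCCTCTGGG
Ugt1a2: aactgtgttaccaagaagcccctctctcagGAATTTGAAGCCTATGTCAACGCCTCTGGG
Ugt1a5: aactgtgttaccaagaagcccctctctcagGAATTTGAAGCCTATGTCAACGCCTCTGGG
Ugt1a6a and Ugt1a6b have the same bases on both sides of the junction, and so do Ugt1a2 and Ugt1a5. Over whole transcripts, between 52.1% and 79.8% of all 50-base windows of a Ugt1a member occurred in another member. The share was also high for Gstp2 (49.1%), Gsta1 (46.6%), Ugt2b5 (41.7%), Ugt2b38 (37.4%), Gsta2 (36.0%), Gstp1 (33.7%) and Ugt2b37 (18.3%). It was 15.8% for Gstm3 and 8.88% for Gstm1, and it was 0 for 23 members, including Sult1a1, Sult1b1, Sult1c2, Gstm7, Gstm4 and Gstt2. Levels of single Ugt1a, Gstp and Gsta1 or Gsta2 genes, and of Ugt2b5, Ugt2b38 and Ugt2b37, are therefore uncertain, since Cufflinks divides shared fragments by estimate.

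Promoter windows of RefSeq (GRCm38.p6, 250 bases before to 50 after a start site) were found for 42 of the 47 members. Those of the genes on which the comparisons below turn most often are printed. Gstt2, which belongs with them, had no entry. Capitals mark matches on either strand to TGACNNNGC (antioxidant response element), AGGTCA (nuclear receptor core site), GCGTG (xenobiotic response element core), ACGTG (hypoxia response element core), CACGTG (E-box, which contains the former), TTATGTAA and TTACGTAA (D-box).
Gstm7 promoter, chr3:107931565-107931864 (- strand): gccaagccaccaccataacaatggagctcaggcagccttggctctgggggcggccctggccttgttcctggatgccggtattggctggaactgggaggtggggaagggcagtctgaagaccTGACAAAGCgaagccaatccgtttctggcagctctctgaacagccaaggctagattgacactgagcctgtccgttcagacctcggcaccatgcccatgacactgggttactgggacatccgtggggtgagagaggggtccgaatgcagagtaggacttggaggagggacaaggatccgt
Sult1b1 promoter, chr5:87538146-87538445 (- strand): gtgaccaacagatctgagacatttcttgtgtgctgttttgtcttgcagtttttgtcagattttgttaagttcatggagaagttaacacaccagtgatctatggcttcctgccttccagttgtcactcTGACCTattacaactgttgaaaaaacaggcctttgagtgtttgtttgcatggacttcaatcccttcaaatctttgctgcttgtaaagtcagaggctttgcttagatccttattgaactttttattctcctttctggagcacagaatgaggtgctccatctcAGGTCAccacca
Sult1a1 promoter, chr7:126676369-126676668 (- strand): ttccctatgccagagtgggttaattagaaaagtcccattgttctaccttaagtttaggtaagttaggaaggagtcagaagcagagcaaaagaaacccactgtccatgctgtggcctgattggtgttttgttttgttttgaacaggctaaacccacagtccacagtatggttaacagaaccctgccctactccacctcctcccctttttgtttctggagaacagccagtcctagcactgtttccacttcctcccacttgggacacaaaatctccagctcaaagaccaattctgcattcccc
Sult1c2 promoter, chr17:53845909-53846208 (- strand): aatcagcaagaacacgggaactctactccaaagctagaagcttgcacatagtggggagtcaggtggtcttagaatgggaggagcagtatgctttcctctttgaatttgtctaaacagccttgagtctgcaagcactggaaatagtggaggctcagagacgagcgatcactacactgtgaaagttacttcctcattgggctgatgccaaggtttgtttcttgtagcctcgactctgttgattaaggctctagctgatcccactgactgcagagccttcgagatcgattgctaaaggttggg
Gstm6 promoter, chr3:107943685-107943984 (- strand): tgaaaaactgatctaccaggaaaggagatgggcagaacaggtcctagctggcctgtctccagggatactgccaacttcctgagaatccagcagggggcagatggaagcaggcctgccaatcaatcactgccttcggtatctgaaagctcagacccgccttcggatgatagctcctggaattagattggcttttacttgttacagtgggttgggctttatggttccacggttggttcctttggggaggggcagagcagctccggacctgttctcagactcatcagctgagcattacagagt
Ugt1a2 promoter, chr1:88200361-88200660 (+ strand): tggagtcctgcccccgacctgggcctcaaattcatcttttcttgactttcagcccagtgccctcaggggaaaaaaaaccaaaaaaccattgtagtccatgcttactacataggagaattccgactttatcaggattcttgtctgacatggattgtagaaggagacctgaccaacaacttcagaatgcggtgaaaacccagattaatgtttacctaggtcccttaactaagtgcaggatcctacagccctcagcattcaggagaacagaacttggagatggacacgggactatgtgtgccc
The Gstm7 window held TGACAAAGC beginning 129 bases before the start site of that window, and the gene has 2 such windows. In GENCODE M21 the gene begins at chr3:107931817 on the - strand. The start site of the window and the match thus lie inside the annotated gene. The Sult1b1 window held a nuclear receptor core site 123 bases before the start and another at base 39 after it. The other 4 windows printed held none of these letters, and that of Sult1c2 lies wholly inside its annotated gene (chr17:53829637-53846339). Among the 42 members 4 held the antioxidant response element (Gsta3, Gstm7, Gstm5 and Mgst1, 9.52%), against 12.4% of all 32851 windows. No member held an E-box, which 7.15% of all windows held. A D-box was found in the window of Ugt2b1 alone (2.38% of members, 1.06% of all windows), the hypoxia core in 6 members (14.3%, against 19.6%), the xenobiotic core in 8 (19.0%, against 32.4%) and the nuclear receptor core site in 11 (26.2%, against 16.3%). Each member was counted by a single chosen window, while the shares of all windows count every window of a gene that has several. A match is a description and not a binding site.

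The highest levels belonged to few genes. Of the 47 members, 4 were above 1000 FPKM on average and made up 65.6% of the summed mean level of all members (12854 FPKM): Mgst1, a membrane-bound enzyme that also reduces lipid peroxides (3096 FPKM), Gstp1 of the pi class (2850), Gstm1 of the mu class (1316) and Gsta3, the alpha enzyme that conjugates aflatoxin epoxide in mice (1170). Gstp2 followed with 886 FPKM and Gstz1, the zeta enzyme of tyrosine breakdown, with 366 FPKM. Of the UGT genes, Ugt2b5 (417 FPKM), Ugt2b36 (280) and Ugt2b1 (213) were highest, and Ugt1a1, which conjugates bilirubin, had 148 FPKM. Among sulfotransferases, Sult2a8, which acts on bile acids, had 297 FPKM and the phenol sulfotransferase Sult1a1 had 206. In each remaining class the leading gene was lower: Gstt1 (theta, 210 FPKM), Gstk1 (kappa, 96.7) and Gsto1 (omega, 73.8). At the other end, 5 members were under 1 FPKM, among them the estrogen sulfotransferase Sult1e1 (0.125 FPKM), and 6 were between 1 and 10.

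**Figure D1:**
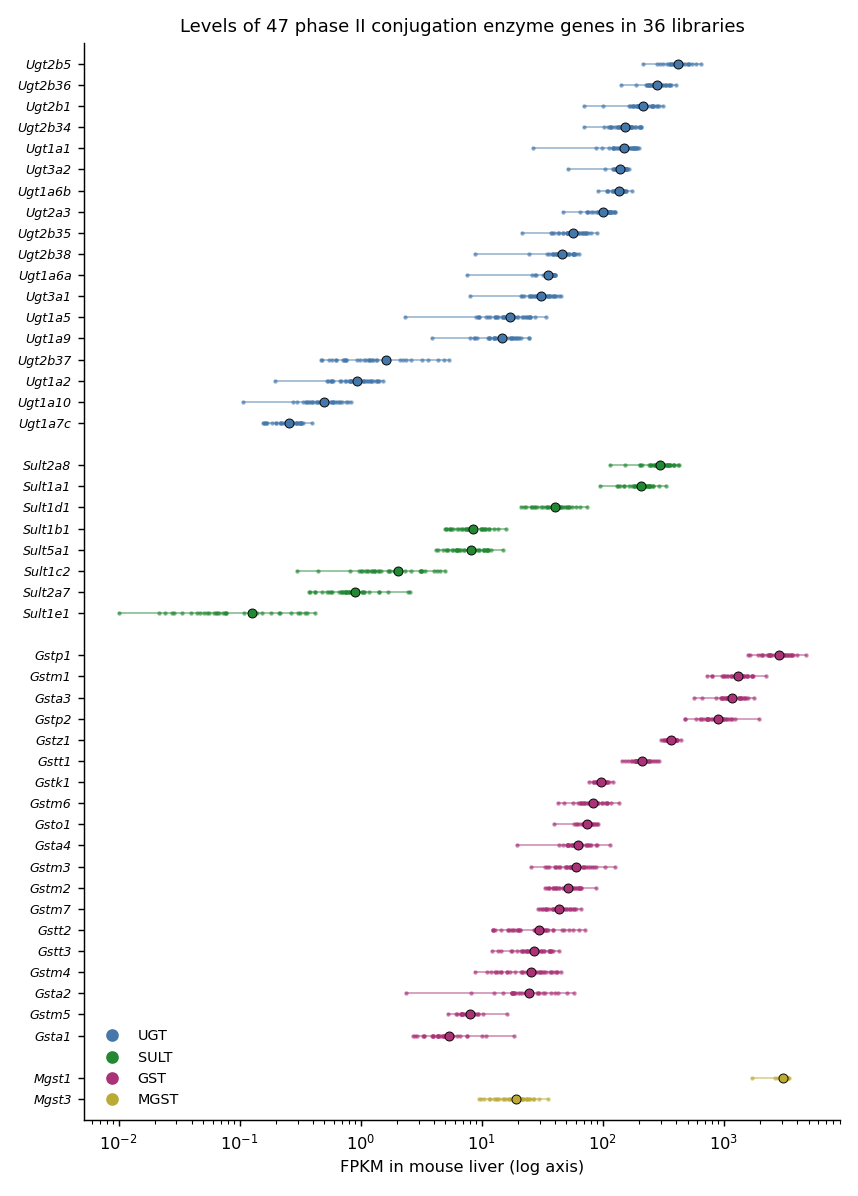
FPKM (log axis) of the 47 members, by family. Small points are the 36 libraries, lines run from the lowest to the highest library and large points are means, and a value of 0 for Sult1e1 in 1 library is drawn at 0.01. Mgst1 and Gstp1 lead, and Sult1e1 and Ugt1a7c are lowest.

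Without a match on level, mice of the same condition and time differed more in these genes, by the median, than over all genes tested. The SD between mice of a group, on the log2(FPKM + 1) scale used for all tests, had a median of 0.30 over the members and of 0.14 over all genes tested. It was smallest for Gstz1 (0.08) among members above 100 FPKM and largest for Gsta2 (0.73), followed by Ugt1a5 (0.60) and Ugt1a1 (0.51). In control the median SD of the UGT genes was 0.42, and in IH it was 0.22. Over all genes it was 0.16 and 0.11, respectively. The log2(FPKM + 1) scale understates the spread of genes with low levels, and members and all genes were not matched for level. The part of the scale in these gaps between members and all genes was not tested.

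Many members were low in the libraries with the highest Saa1, and the SD between mice without these libraries is not given here. Of the 47 members, 35 had their lowest value of 3 in IH ZT0 replicate 2, 36 in control ZT12 replicate 2 and 33 in control ZT16 replicate 3, and 26 were lowest in all 3 of them. Such counts over all genes are not given here. Against the other 2 mice of the group, the median log2 difference of the members was -0.54, -0.69 and -0.30, in the order given. Over all genes it was negative too (-0.06, -0.19 and -0.07). For 10 members (21.3%, against 1.79% of all genes tested) the values in all 3 libraries were below all 33 other libraries: Ugt2b5, Ugt2b36, Ugt2a3, Ugt2b38, Ugt1a6a, Sult2a8, Gstm1, Gstm6, Gsto1 and Gsta2. Gsta2, an alpha enzyme, was between 2.38 and 12.6 FPKM in the 3 libraries and between 15.0 and 58.0 in the others. Gstm1 was between 725 and 792 FPKM there and between 971 and 2241 elsewhere. Ugt2b5 was between 214 and 298 FPKM, against 314 to 640. Some values were high instead. Sult2a7 was above all 33 other libraries in 2 of the 3, and Gstm5, Sult1a1, Sult1e1 and Ugt2b37 were in 1. Gstp1, Gstp2, Gstk1 and Sult5a1 were above the 33 in control ZT12 replicate 2 and below them in IH ZT0 replicate 2, with 4764 and 1571 FPKM for Gstp1. The 3 libraries are not a group of the design, so these values are a description with no test, and the cause was not tested.

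**Figure D2:**
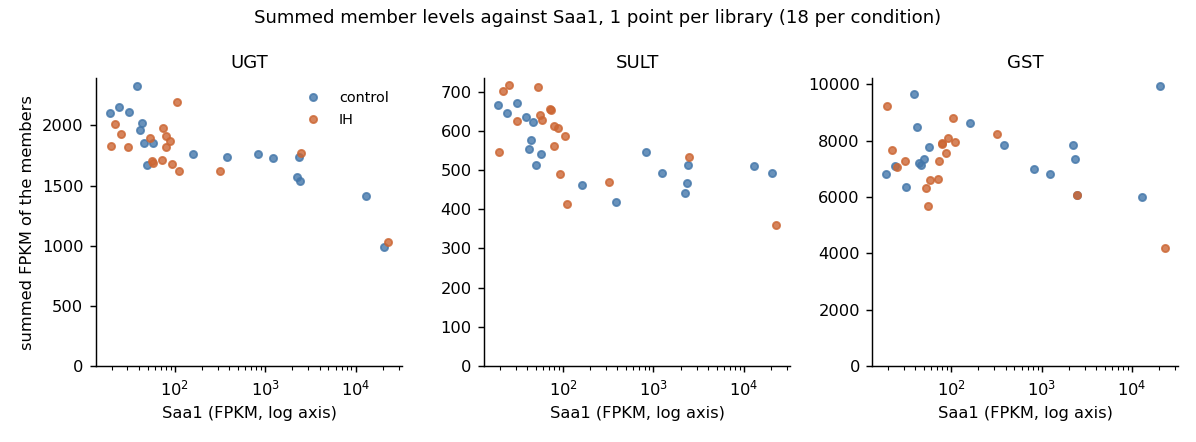
Summed FPKM of the UGT, SULT and GST members (vertical axes, from 0) against Saa1 in FPKM (log axis), 1 point per library, 18 control and 18 IH. UGT sums were 989 to 1413 FPKM in the 3 libraries with Saa1 above 10000 FPKM, 1535 to 1774 in the 6 with 500 to 10000 and 1620 to 2323 in the 27 others, while 1 of the 3 had the highest GST sum (9925 FPKM).

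Whether a gene had a daily rhythm was asked with a 24-h cosine fitted to log2(FPKM + 1) with limma, once over both conditions with the same curve and once in each condition alone. Over both conditions 18 of the 47 members (38.3%) were rhythmic at an adjusted p of 0.05, where 55.4% of all genes tested were. Without the 3 libraries with Saa1 above 10000 FPKM the count was 29 of 47, where 63.1% of all genes were rhythmic, and 14 of 18 UGT genes were among them. Without control ZT12 replicate 2 alone it was 30, a fit for which the share of all genes is not given here. With all libraries, the 18 were 6 of 18 UGT, 6 of 8 SULT and 6 of 19 GST genes, and neither MGST gene. Fitted peaks lay between ZT2.2 and ZT17.7, with 5 before ZT6, 8 between ZT6 and ZT12, 5 between ZT12 and ZT18 and 0 later in the night. The ratio of fitted peak to trough, on the log2(FPKM + 1) scale, ran from 1.22 to 3.06.

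**Figure D3:**
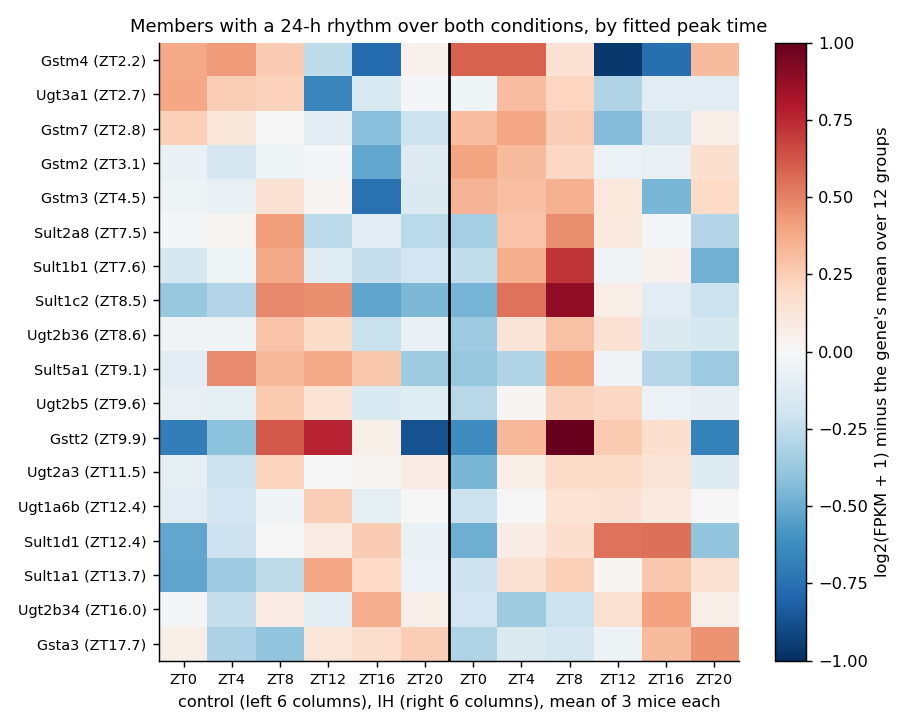
Members with a rhythm over both conditions, ordered by fitted peak time (in brackets), 6 control and 6 IH groups of 3 mice. Colour gives the mean log2(FPKM + 1) of a group minus the mean of the gene over 12 groups, so that red is high and blue low. Gstm4 and Gstm7 are red at ZT0 and ZT4, Gstt2 and Sult1c2 are red around ZT8, and Gsta3 is red from ZT16 to ZT20.

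The theta gene Gstt2 (chr10:75831114-75837424) had the largest rhythm, with a peak at ZT9.9 and an amplitude of 0.81 on the log2 scale (adjusted p = 1.45e-09). Control mice averaged 16.2 ± 3.8 FPKM (SD, n = 3, as in the following values) at ZT0, 42.5 ± 13.7 at ZT8, 46.7 ± 14.3 at ZT12 and 14.1 ± 2.5 at ZT20. In IH it was 17.0 ± 4.2 FPKM at ZT0, 57.9 ± 12.6 at ZT8, 32.0 ± 3.4 at ZT12 and 16.2 ± 1.6 at ZT20. Its neighbours of the same cluster, Gstt1 (adjusted p = 0.55) and Gstt3 (0.77), had no rhythm that passed the test.

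Of the 7 mu class genes, 4 peaked in the first hours of light, and the class lies within chr3:107895821-108044894. Gstm4 had a peak at ZT2.2 and an amplitude of 0.68 (adjusted p = 1.25e-07). Its level at ZT4 was 32.7 ± 9.4 FPKM in control mice and 36.5 ± 8.7 in IH mice. At ZT16 it was down to 13.3 ± 0.8 and 13.6 ± 2.5 FPKM. Gstm7 peaked at ZT2.8 (amplitude 0.32, adjusted p = 3.12e-07), Gstm2 at ZT3.1 (0.17, 0.0384) and Gstm3 at ZT4.5 (0.29, 0.0253). Gstm1, the most abundant of the class, did not pass (amplitude 0.11, adjusted p = 0.468). Gsta3 was the single alpha gene with a rhythm and had the latest peak, ZT17.7 (amplitude 0.32, adjusted p = 0.000121). It was lowest in control at ZT8 (886 ± 199 FPKM) and highest at ZT20 (1368 ± 210).

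The 6 rhythmic sulfotransferases peaked between ZT7.5 and ZT13.7. Sult2a8 peaked at ZT7.5 (amplitude 0.29, adjusted p = 0.00656), Sult1b1, which acts on thyroid hormones and phenols, at ZT7.6 (0.36, 9.08e-05) and Sult1c2 at ZT8.5 (0.53, 2.02e-05). Sult5a1 followed at ZT9.1 (0.34, 0.000615), Sult1d1, which acts on catecholamines, at ZT12.4 (0.41, 7.78e-05) and Sult1a1 at ZT13.7 (0.26, 0.00532). Sult1d1 in IH was 28.9 ± 12.4 FPKM at ZT0, 57.9 ± 13.4 at ZT12 and 29.5 ± 3.5 at ZT20. In control it was 26.8 ± 0.9, 44.3 ± 18.9 and 37.0 ± 2.8 FPKM at these times.

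The 6 rhythmic glucuronosyltransferases had amplitudes between 0.15 and 0.31. Ugt2b36 (peak ZT8.6, amplitude 0.24, adjusted p = 0.00218), Ugt2b5 (ZT9.6, 0.20, 0.0211) and Ugt2a3 (ZT11.5, 0.19, 0.0434) were highest in the second part of the light phase. Ugt1a6b (ZT12.4, 0.15, 0.00364) and Ugt2b34 (ZT16.0, 0.27, 0.00263) peaked in the dark, and Ugt3a1 (ZT2.7, 0.31, 0.00618) after lights on. The 3 rhythmic genes of the Ugt2b cluster thus had fitted peaks between ZT8.6 and ZT16.0.

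**Figure D4:**
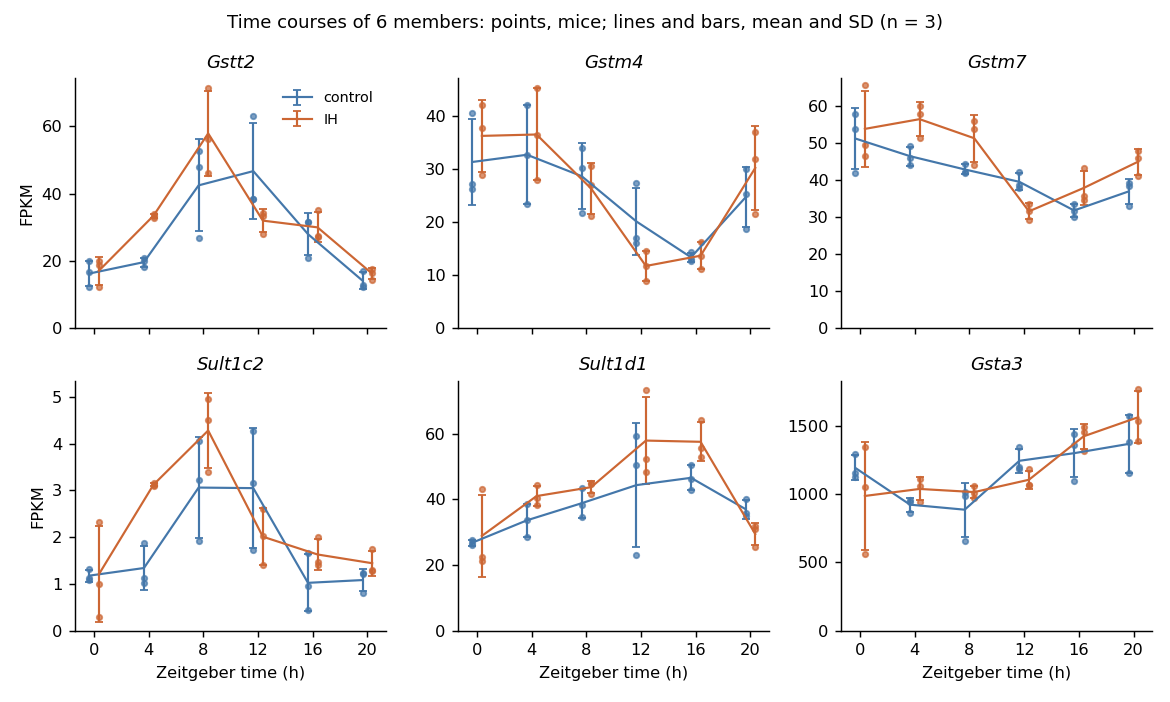
FPKM by Zeitgeber time of 6 members in control (blue) and IH (orange). Points are single mice, and lines and bars are the mean and SD of 3 mice. Gstt2 and Sult1c2 are highest at ZT8 in IH and at ZT8 and ZT12 in control, Gstm4 and Gstm7 are high at ZT0 and ZT4, and Gsta3 is highest at ZT20.

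Taken separately, 6 of 47 members (12.8%) were rhythmic in control at a nominal P of 0.01, where 20.0% of all genes tested were: Gsta3, Gstm7, Gstt2, Gstm4, Sult1a1 and Sult1c2. In IH 15 members (31.9%) were rhythmic, against 39.9% of all genes. They were Gstm7, Gstt2, Gstm4, Gsto1, Sult2a8, Sult1d1, Sult1b1, Sult5a1, Sult1c2, Ugt2b36, Ugt2b1, Ugt2b34, Ugt1a1, Ugt1a6b and Ugt3a1. No UGT gene was rhythmic in control and 6 of 18 were in IH. Passing in one condition and not in the other is no difference between them. The test of the difference, the interaction of condition with the cosine, called 0 of 47 members, as it called 0% of all genes, and the smallest adjusted p of a member was 0.92. At an unadjusted p of 0.05 there were 3 members (6.38%, against 4.91% of all genes). Gsto1 had a fitted amplitude of 0.02 in control and 0.25 in IH, Gstm4 of 0.55 and 0.84, and Sult1a1 of 0.42 and 0.11.

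The count in control depended on single libraries. Without control ZT12 replicate 2 it was 15, with the share of all genes not given here. Without the 3 libraries with Saa1 above 10000 FPKM it was 18 in control (27.4% of all genes) and 19 in IH (42.4%). Of the 18 UGT genes 7 were then rhythmic in each condition. Ugt2b34, Sult2a8 and Ugt2b36, which missed the threshold in control with all libraries, passed it without these 3. The interaction called 0 members in that fit too.

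The 4 members rhythmic in both conditions each had an earlier fitted peak in IH (median difference -1.56 h, IH minus control), a shift that the interaction did not call for any of them. Gstt2 peaked at ZT10.7 in control and ZT9.0 in IH, Gstm4 at ZT3.2 and ZT1.6, Sult1c2 at ZT9.3 and ZT7.8 and Gstm7 at ZT3.4 and ZT2.3. Of all genes tested, 2047 were rhythmic in both conditions, and their median shift is not given here. The paper reports a slight advance in IH for the genes it found rhythmic in both conditions, so an earlier peak is not particular to these members.

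Levels were then compared between IH and control at ZT4 and ZT8, the samples taken during the hours of hypoxia, with 6 mice per condition and the time point as a factor. At an adjusted p of 0.05, 8 members (17.0%) were higher in IH, where 6.05% of all genes were higher, and 1 member (2.13%) was lower, where 1.93% were. The 8 were the sulfotransferases Sult1a1, Sult1b1 and Sult1c2, the mu class genes Gstm6, Gstm2 and Gstm7, the theta gene Gstt2 and Ugt1a2. Ugt2b37 was lower. The median difference was 0.11 on the log2 scale over the members and 0.04 over all genes, and 35 of 47 members and 8561 of 13215 genes had a positive difference. Without the 9 libraries with Saa1 above 500 FPKM the median was -0.02 over the members and 0.01 over all genes. With the libraries rescaled by their median ratio it was 0.04 over the members and 0.00 over all genes. With the libraries rescaled by their median ratio, 6 members were higher and 2 lower (3.48% and 3.48% of all genes), and after quantile normalization 6 and 3 (3.95% and 3.24%). Leaving out single libraries changed many of these calls: 1 member was higher without IH ZT4 replicate 2, or without control ZT4 replicate 1, and 11 were without control ZT8 replicate 2. Shares of all genes in these 3 fits are not given here. A change in the members therefore cannot be told from one in the whole table.

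Sult1a1 (chr7:126672865-126676432) was 139, 150 and 182 FPKM in control at ZT4 and 134, 197 and 181 at ZT8. In IH it was 206, 242 and 223 FPKM at ZT4 and 251, 259 and 204 at ZT8. All 6 IH values were above all 6 control values, which held for 1.42% of all genes. The difference was 0.50 ± 0.10 (log2, SE, adjusted p = 0.0201). Its exons overlap those of Sgf29 in the annotation. Later in the day the order was not the same: at ZT12 the control mice had 238, 330 and 229 FPKM and the IH mice 182, 215 and 216.

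Sult1b1 (chr5:87513339-87538195) was 7.33, 8.62 and 7.67 FPKM in control and 9.94, 11.4 and 10.9 in IH at ZT4. At ZT8 control mice had 10.5, 10.7 and 11.4 FPKM and IH mice 15.8, 13.6 and 12.7. The groups did not overlap at either time, and the difference was 0.37 ± 0.06 (adjusted p = 0.0105). Sult1c2 (chr17:53829637-53846339) was low but differed most at ZT4, with 1.02, 1.88 and 1.13 FPKM in control and 3.09, 3.12 and 3.15 in IH. Control mice had 1.92, 3.21 and 4.05 FPKM at ZT8, and IH mice 4.96, 4.50 and 3.38, which overlap (difference over both times 0.62 ± 0.15, adjusted p = 0.0287). Sult1d1 (0.23 ± 0.08, adjusted p = 0.0851) and Sult2a8 (0.16 ± 0.07, 0.184) did not pass. Sult5a1 had a negative difference that did not pass (-0.35 ± 0.14, 0.138).

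Gstm6 (chr3:107938847-107943749) was 69.6, 79.6 and 66.8 FPKM in control and 108, 108 and 89.1 in IH at ZT4, and 70.3, 98.5 and 83.0 against 108, 104 and 99.1 at ZT8. Neither time point had an overlap, and the difference was 0.40 ± 0.08 (adjusted p = 0.0226). Gstm2 was 49.1, 43.2 and 41.2 FPKM in control and 63.9, 66.0 and 57.6 in IH at ZT4, with values that overlapped at ZT8 (46.4, 60.2 and 40.8 against 59.4, 62.9 and 52.1). It differed by 0.37 ± 0.09 (adjusted p = 0.0364). For Gstm7 the control values were 49.2, 46.1 and 44.0 FPKM at ZT4 and 42.0, 44.4 and 42.2 at ZT8, and the IH values 57.8, 60.1 and 51.3, and 56.0, 53.9 and 44.0 (0.26 ± 0.06, adjusted p = 0.03). With all libraries the 7 mu class genes had a positive difference, but Gstm4 turned to -0.04 with median ratio scaling, to -0.02 after quantile normalization and to -0.13 without the libraries with Saa1 above 500 FPKM, where Gstm1 turned to -0.02. Gstm1, Gstm3, Gstm4 and Gstm5 did not pass (0.03 to 0.29). Gstm2 and Gstm7 did not pass with median ratio scaling (adjusted p = 0.0542 and 0.0632) or after quantile normalization (0.0509 and 0.051).

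Gstt2 was 18.1, 20.7 and 20.0 FPKM in control at ZT4 and 34.0, 33.4 and 32.9 in IH. At ZT8 the 3 control mice had 26.9, 52.5 and 47.9 FPKM and the IH mice 71.3, 56.2 and 46.3, so that the groups were apart at ZT4 and overlapped at ZT8 (0.61 ± 0.15, adjusted p = 0.033). Both pi class genes had negative differences that did not pass (Gstp1, -0.24 ± 0.13, adjusted p = 0.271, and Gstp2, -0.19 ± 0.12, 0.33). Mgst1 was 3139 ± 124 FPKM in control and 3150 ± 140 in IH (SD, n = 6, difference 0.00 ± 0.05).

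Ugt1a2, at 0.723 ± 0.189 FPKM in control and 1.22 ± 0.22 in IH (SD, n = 6), was the lone Ugt1a gene past the threshold (0.36 ± 0.08, adjusted p = 0.0264). The log2(FPKM + 1) scale understates changes at such levels. Ugt1a5, whose exon junction it shares, had the larger difference and a larger error (0.55 ± 0.24, adjusted p = 0.167). Ugt2b37 (chr5:87240493-87254804) was 1.52, 1.26 and 4.83 FPKM in control and 0.478, 0.548 and 0.619 in IH at ZT4. The ZT8 values were 2.34, 1.10 and 1.17 FPKM for control mice, against 0.470, 0.578 and 0.758 for IH mice. Every IH value was below every control value, as for 0.416% of all genes, and the difference was -0.84 ± 0.21 (adjusted p = 0.0343). At ZT0 the same gene was at 3.62, 5.39 and 0.720 FPKM in IH and at 0.748, 1.71 and 0.706 in control. The abundant Ugt2b5 (0.04 ± 0.09) and Ugt2b36 (0.09 ± 0.07) did not pass.

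**Figure D5:**
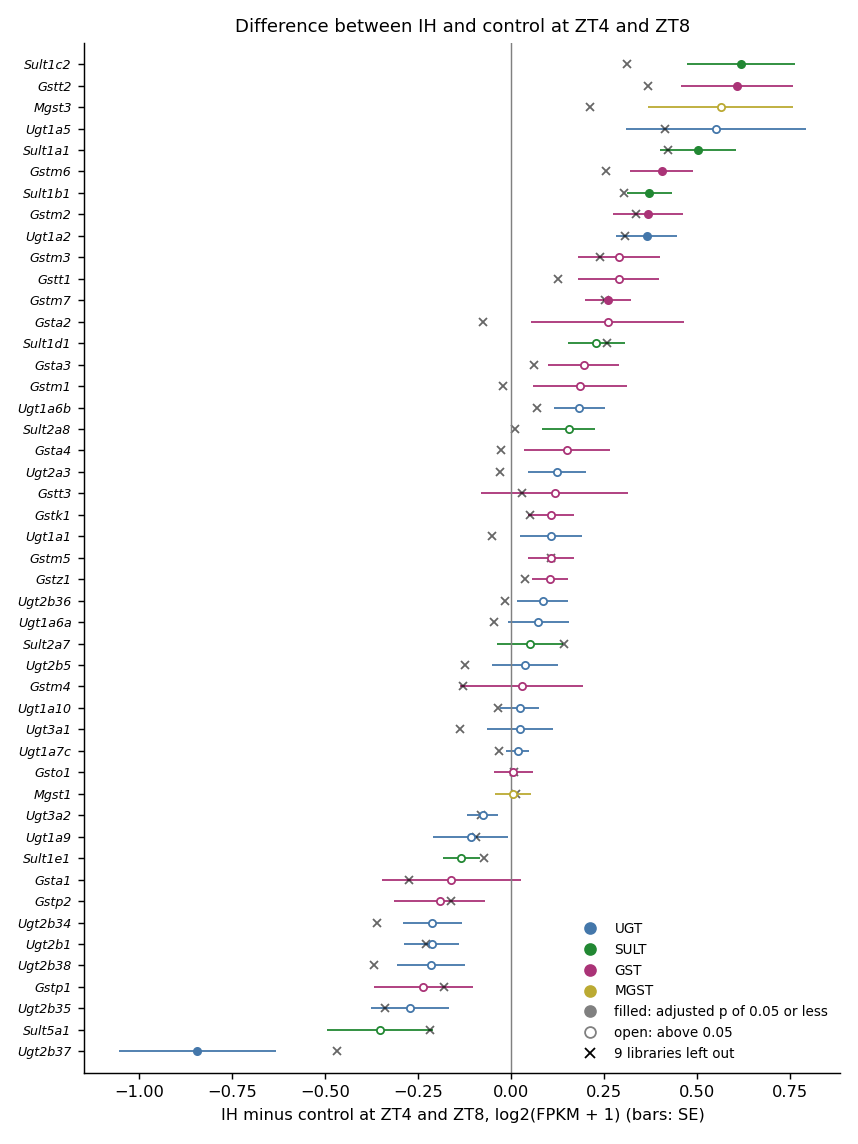
Difference between IH and control at ZT4 and ZT8 for the 47 members, on the log2(FPKM + 1) scale, with 6 mice per condition and bars of 1 SE. Filled points passed an adjusted p of 0.05, open points did not, and crosses give the difference without the 9 libraries with Saa1 above 500 FPKM. Sult1c2 and Gstt2 lie farthest to the right and Ugt2b37 farthest to the left, and all 9 filled points lie farther from 0 than their crosses.

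In the 12 libraries of ZT4 and ZT8, the sum of 10 acute-phase genes was between 3310 and 11645 FPKM in control and between 3342 and 4332 in IH, which overlap, and 0 of the 10 passed the test. The hepatocyte marker sum was between 40557 and 52931 FPKM in control and between 53953 and 57610 in IH, without overlap. Of its 8 genes 2 were higher in IH, where 6.05% of all genes were: Apoa1 (0.34 ± 0.06, adjusted p = 0.0122) and Asgr1 (0.29 ± 0.05, 0.0144). Kupffer cell markers summed to between 40.9 and 94.9 FPKM in control and between 33.5 and 64.3 in IH, and 0 of 8 passed. Without the 9 libraries with Saa1 above 500 FPKM, which leaves 3 control and 6 IH mice at ZT4 and ZT8, the test called 0 members and 0% of all genes. All 9 differences kept their sign, all were smaller, and their adjusted p lay between 0.058 and 0.251. Sult1a1 was then at 0.42, Gstm2 at 0.34, Gstm7 at 0.25, Gstt2 at 0.37, Sult1c2 at 0.31 and Ugt2b37 at -0.47. Control ZT4 replicate 2 was the only control mouse left at ZT4. The 9 had been picked for passing with all libraries. With so few control mice, losing the threshold in this fit does not tell whether a difference depends on Saa1. The part of the acute-phase response in the result was not tested.

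Single time points, tested with 3 mice per condition in a fit of all 36 libraries, gave 0 members past an adjusted p of 0.05. Among all genes the shares called were 0% at ZT0, 1.16% at ZT4, 0.00757% at ZT8, 0.772% at ZT12, 0.00757% at ZT16 and 0% at ZT20. At an unadjusted p of 0.05 there were 3 members at ZT0, 13 at ZT4, 3 at ZT8, 12 at ZT12, 2 at ZT16 and 1 at ZT20. The same threshold was met by 7.57%, 16.4%, 4.74%, 24.6%, 3.30% and 4.74% of all genes at these times, so that the members' share at ZT12 was near that of all genes. At ZT4 the IH mice were above the control mice without overlap in 20 members (42.6%, against 26.7% of all genes) and below them in 8 (17.0%, against 7.79%). At ZT8 these counts were 3 (6.38%, against 11.0%) and 1 (2.13%, against 7.16%). The 8 below at ZT4 were Sult5a1, Sult1e1, Gstp1, Gstp2, Ugt3a2, Ugt2b1, Ugt2b35 and Ugt2b37.

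Over all time points, with 18 mice per condition, no member was higher or lower in IH at an adjusted p of 0.05, where 0.303% of all genes were higher and 0.0530% lower. The smallest adjusted p belonged to Gstm2 (0.31 ± 0.08, adjusted p = 0.0762), which was above the control mean of its time point in 16 of 18 IH mice. Ugt1a2 (0.24 ± 0.07, 0.114), Sult5a1 (-0.32 ± 0.10, 0.194), Gstm6 (0.26 ± 0.10, 0.301) and Ugt1a5 (0.45 ± 0.18, 0.341) came next. An unadjusted p of 0.05 or less was reached by 8 of 47 members and by 10.8% of all genes.

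Genes related to the donors of these enzymes, to other conjugation and to export were read from lists in the same tests. A list does not mean that each of its genes supplies the members. At ZT4 and ZT8, 6.05% of all genes were higher in IH and 1.93% lower, and counts in lists this short are a description. Among 6 genes of nucleotide sugar supply, Ugp2, which makes UDP-glucose, was higher in IH at ZT4 and ZT8 (0.44 ± 0.11, adjusted p = 0.0374) and Ugdh, which oxidizes it to UDP-glucuronic acid, was lower (-0.29 ± 0.08, 0.0496). Of 8 genes of sulfate donor supply, 2 were higher and 1 lower. Slc35b2, a PAPS transporter of the Golgi, was 13.3 FPKM in control and 16.9 in IH on average (0.33 ± 0.05, adjusted p = 0.00975). The sulfate transporter Slc26a1 rose (0.22 ± 0.06, 0.0487), and Bpnt1, which degrades the by-product of PAPS, fell (-0.19 ± 0.04, 0.0255). Of 11 genes of glutathione supply, 0 were higher and 1, Ggct, was lower (-0.33 ± 0.09, 0.0393), while the rate-limiting Gclc did not pass (-0.35 ± 0.12, 0.0888). One of 16 other conjugating enzymes was higher, Acsm1 of the glycine conjugation pathway (0.22 ± 0.04, 0.0192), and 1 of 8 conjugate exporters, Abcc6 (0.34 ± 0.07, 0.0225). The median difference of these lists was -0.14, 0.08, -0.05, 0.16 and 0.06, in the order given, against 0.04 over all genes.

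Among 21 regulators of phase II genes, 3 were higher in IH at ZT4 and ZT8 and 1 was lower, where 6.05% and 1.93% of all genes were. CAR (Nr1i3) was 54.2 FPKM in control and 80.6 in IH (0.66 ± 0.18, adjusted p = 0.0474). Tef and Hlf, activators that bind D-boxes, were also higher (0.73 ± 0.16, 0.0255, and 0.53 ± 0.12, 0.0278), and Nfil3, a repressor at the same sites, was lower (-0.52 ± 0.14, 0.0467). Dbp had the largest difference of the list (1.34 ± 0.38, adjusted p = 0.0514) but did not pass. NRF2 (Nfe2l2, 0.44 ± 0.15, adjusted p = 0.0871), PXR (Nr1i2, 0.21 ± 0.12, 0.29) and AHR (Ahr, 0.21 ± 0.09, 0.171) did not pass. Over both conditions 17 of the 21 had a rhythm, where 55.4% of all genes did. The list includes the clock genes Nr1d1, Nr1d2, Arntl and Clock and the clock-output genes Dbp, Tef, Hlf and Nfil3, all of them rhythmic. This choice of genes set part of the share, which is therefore no result about regulators of phase II genes. The fitted peaks of CAR and Tef lay at ZT11.4 and ZT11.1.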

How the data were processed

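The authors aligned reads of each stranded poly-A library to mm10 with TopHat2 2.1.1 and deposited FPKM estimated with Cufflinks 2.2.1 (versions per the submitters' processing notes), in 1 table per condition. Column names repeat between the tables, so the condition was taken from the table names together with the study's own curves for Fasn and Gys2. Annotation and scaling between libraries are not given in the sources used here, and depth is unknown. FPKM values were analysed as log2(FPKM + 1), which understates changes of low genes. Symbols on 1 row with a mean of at least 0.1 FPKM were fitted with limma 3.58.1 in R 4.3.3 (moderated tests with trend, two-sided, Benjamini-Hochberg adjustment over 13215 genes), after tests on simulated data. Rhythms used a cosine of 24 h, within a condition at a nominal P of 0.01 as in the study, whose own rhythm program was not used here. Comparisons of conditions had the time point as a factor, or used 12 group means for single time points.

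Members and lists were chosen with earlier results of these data known. Genes named in the text are, per family or class, the 3 members of highest mean, the 5 of smallest P in each test, every member past an adjusted p of 0.05 and, from the related lists, the genes past that threshold. Others were named after their values were seen, among them members that are rhythmic or low in the high Saa1 libraries and regulators that did not pass. Promoters are printed for members named in at least 3 parts of this rule, with Gstm7 and Sult1b1 added from ties after values were seen. Sequences came from RefSeq (GRCm38.p6) and GENCODE M21, and figures were drawn with Matplotlib 3.10.9. Alternatives were other pseudocounts, filters, scalings and tests, each library left out, the replicate number as a block, and library weights.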

Additional observations from a re-analysis of the deposited data

How the results depend on the processing

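Of the recomputed counts of members, 527 stayed within 1.5 times the value reported, or at 0, and 52 moved. Several counts below, among them all those without single libraries, stand without a share of all genes. For these, a change in the members cannot be told from one in the whole table. For single named members 5048 recomputed results kept direction and side of the threshold, 117 lost and 110 gained the threshold, and 0 reversed as a called result. The number rhythmic in control (6, with 20.0% of all genes) was 11 with median ratio scaling (22.1%). Alternatives chosen after seeing the data gave 18 without the libraries with Saa1 above 10000 FPKM (27.4%), 16 without those above 500 FPKM (20.8%) and 19 with library weights (35.6%). Leaving out single libraries gave 6 to 15, highest without control ZT12 replicate 2. The number rhythmic in IH (15) was 10 to 19 without single libraries. The number rhythmic over both conditions (18, with 55.4% of all genes) was 29 without Saa1 above 10000 FPKM (63.1%), 30 with library weights (70.5%) and 16 to 30 without single libraries, highest again without control ZT12 replicate 2. No alternative called a member for a different rhythm.

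The 8 members higher at ZT4 and ZT8 became 4 with no filter on low values, 0 without Saa1 above 500 FPKM, 0 at ZT8 alone, 0 without the time factor and 1 to 11 without single libraries. The 1 lower became 0 in the first 4 of these and 0 to 1 without single libraries. It became 2 with median ratio scaling (3.48% of all genes), 3 after quantile normalization (3.24%) and 3 with library weights (3.25%). With no filter on low values, 2.53% of all genes were higher and 0.755% lower. Over 21 of the alternatives, Sult1b1 passed in 20, Sult1a1 and Gstm6 in 18 and Ugt2b37 in 12. Sult1c2 and Gstt2 passed in 11 of the 21, Gstm7 in 10 and Gstm2 in 7. Ugt1a2 passed in 12 of 20. Over all time points, 0 higher became 3 with library weights (3.46% of all genes), 2 at a nominal P of 0.01 and 0 to 2 without single libraries. The 0 lower became 1 with weights (0.900%) and 1 at the nominal P. At ZT4 the 0 called became 6 without Saa1 above 10000 FPKM (10.2% of all genes), 17 with weights (24.6%), 9 with the libraries of that time alone, 5 at the nominal P and 0 to 4 without single libraries (4 without control ZT12 replicate 2). Nominal P gave 1 at ZT0 and 2 at ZT12, and weights gave 1 at ZT8 (1.83% of all genes). At ZT12 the count ranged from 0 to 13 without single libraries (13 without control ZT12 replicate 3). The cause was not tested.

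With the replicate number as a replicate block, 7 members were rhythmic in control (18.3% of all genes), 14 in IH (38.7%) and 18 over both (54.9%). In that fit 8 were higher (5.19%) and 1 lower (1.63%) at ZT4 and ZT8. The numbers did not pair the mice: deviations of same-numbered mice correlated at a mean of 0.0539 over 18 pairs (-0.179 to 0.294, 6 above 0.1). Depth limits could not be computed from FPKM.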

Other observations

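Pairs of neighbouring members differed in how far they moved together between mice. Deviations from the group mean on the log2 scale, over 36 libraries that share their composition and, in part, reads of near-identical exons, correlated at 0.98 for Gstp1 and Gstp2, 0.96 for Ugt1a1 and Ugt1a6a, 0.96 for Ugt2b5 and Ugt2b36 and 0.94 for Ugt1a2 and Ugt1a5. The mu class genes Gstm1 and Gstm6 were at 0.89 and the theta genes Gstt1 and Gstt3 at 0.89. The value was lower for Gstm1 and Gstm2 (0.54), Gstm4 and Gstm7 (0.53) and Ugt1a1 and Ugt1a6b (0.45), the last of which share exon 2. Without the 9 libraries with Saa1 above 500 FPKM it was 0.99 for Gstp1 and Gstp2, 0.93 for Ugt1a1 and Ugt1a6a, 0.91 for Ugt2b5 and Ugt2b36 and 0.29 for Ugt1a1 and Ugt1a6b. Other gene pairs were not computed, and these values are descriptions with no test.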
